A study of Mus musculus with 12 samples.

Results

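The third day of Neurog1 induction in mouse embryonic stem (ES) cells was read from 6 of the 12 arrays of the series. These were the 3 arrays titled as Neurog1-expressing ES cells at 72 h and the 3 arrays so titled at 48 h, compared over 11806 tested genes. All groups were ES cells of 129P2/OlaHsd origin (E14, Ainv15) that carried a tetracycline-inducible Neurog1 transgene. They were grown in medium with serum, leukaemia inhibitory factor, puromycin and G418. The induced groups received 1 ug/ml doxycycline for 24, 48 or 72 h, and the uninduced group was sampled from the maintenance culture at 0 h. The 4 groups had 3 arrays each, labelled as biological replicates; what was separate between them is not stated, so a p-value measures the spread between these samples, which may be technical. The engineered line is named only by its strain and parental lines, and no uninduced cells were sampled at 48 h or 72 h. Time with the transgene, time with doxycycline and time in culture therefore cannot be told apart in the comparison of 72 h with 48 h.

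Neurog1 encodes a proneural transcription factor of the basic helix-loop-helix family. In the embryo it commits cells of the cranial placodes, dorsal root ganglia and parts of the central nervous system to a neuronal fate, and it is best known for its role in sensory neurons. Proneural factors act briefly: they switch on Notch ligands and a cascade of downstream factors such as the Neurod and Ebf families, and the cell then leaves the cycle. The proteins of a working neuron, among them neurofilaments, axonal microtubule proteins, adhesion molecules and the machinery of transmitter release, are made later, as axons grow and synapses form.

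The values were signals made with MAS5, a method that gives each probe set of an Affymetrix array a brightness on a linear scale. Median signals were 19.5 to 32.8 over the 12 arrays, and tests were run on log2(signal + 16), a scale that understates changes of dim genes. Arrays at 48 h correlated with each other at 0.969 or more, and those at 72 h at 0.961 or more, across tested genes. Induced 24 h replicate 1 stood apart, at 0.812 and 0.787 with the other arrays of its group. It enters the comparison of 72 h with 48 h only through the spread that all 12 arrays share in the fit, so counts are given with and without it. In comparisons that use the 24 h group it is also part of the group mean. The counts given for 48 h against 24 h and for 24 h against uninduced cells include it. Precision is limited by the 3 arrays per group.

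Over the third day, 94 of 11806 genes passed the test (0.796%; limma, Benjamini-Hochberg adjusted p under 0.05, 3 arrays per time). Of these, 76 were higher at 72 h (0.644%) and 18 were lower (0.152%), and 93 of the 94 changed at least 2-fold. The 5 largest rises among called genes were of Nefm, Ppp1r1c, Sncg, Mapt and L1cam, and the falls included the neuropeptide genes Gal and Grp. At an unadjusted p under 0.05 there were 1015 genes, and the median difference over all tested genes was -0.03 on the log2 scale. The arrays of both times did not overlap for any of the 94 genes, and the same was true of 2844 of the 11806 genes (24.1%). Without induced 24 h replicate 1, limma called 485 of 11893 genes (4.08%), of which 285 were higher (2.4%) and 200 lower (1.68%), and all 94 genes kept their call and direction. With the replicate number as a block 111 genes were called, among them 85 of the 94.

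The count also rested on single arrays at 48 h and 72 h. It was 41, 59 and 33 genes without 48 h replicates 1, 2 and 3, and 27, 43 and 90 without 72 h replicates 1, 2 and 3. Of the 94 genes, 25 kept their call on leaving out each of the 12 arrays in turn, and 21 of those were higher at 72 h. Replicate 3 was the lowest 48 h array in 57 of the 76 rises, against 4976 of all 11806 genes. It was the lowest 72 h array in 14 of the 18 falls, against 5846 of all 11806 genes. With all 4 arrays numbered 3 left out, limma called 0 genes, with 726 at an unadjusted p under 0.05. With a pseudocount of 1 in place of 16, 19 genes were called. Of the 43 called genes chosen by the naming rule, 13 kept their call with it: Nefl, Mapt, L1cam, Sncg, Ppp1r1c, Fkbp1b, Isl2, Dbx1, Hrk, Myh7b, Pcolce, C1s1 and Tulp2. The other 30 lost it, among them Nefm (limma adjusted p = 0.25), Ttll7 (0.247), Edil3 (0.211), Akap6 (0.109) and Gal (0.13).

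**Figure D1:**
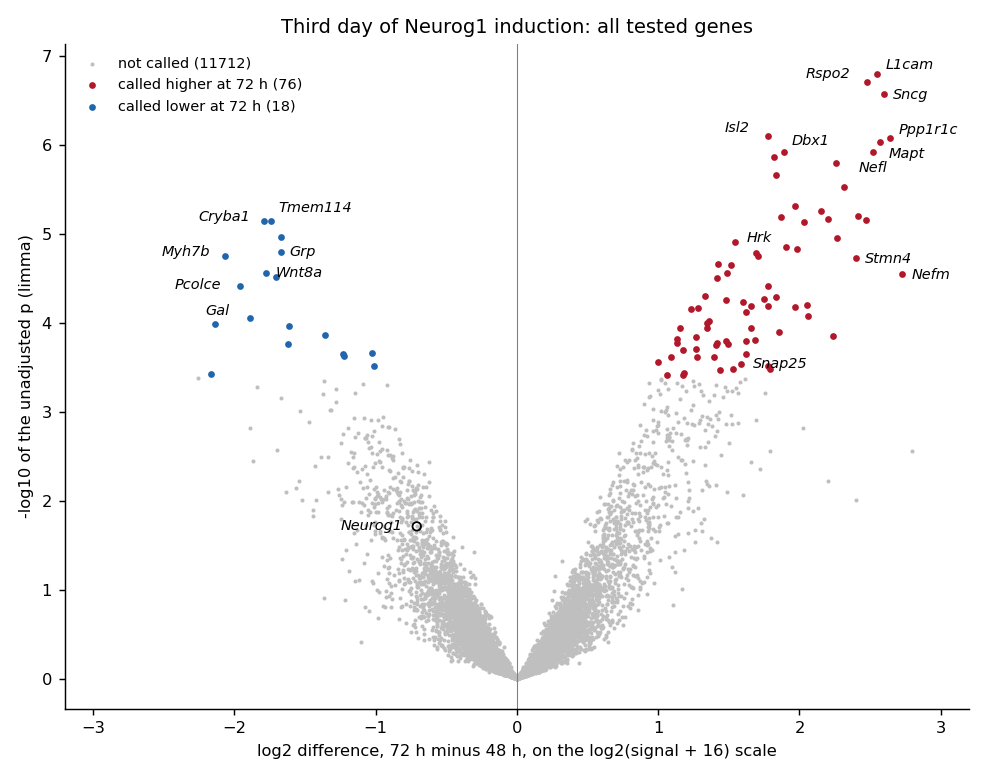
Each point is a tested gene: the horizontal axis gives the log2 difference of 72 h minus 48 h and the vertical axis -log10 of limma's unadjusted p (3 arrays per time). Red points are the 76 genes called higher, blue points the 18 called lower, and the open circle is Neurog1, which was not called.

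The transgene's own factor was measured first. The brighter Neurog1 probe set read 11.4, 18.7 and 4.53 in uninduced replicates 1, 2 and 3, and 756, 931 and 974 at 24 h. It read 1089, 1152 and 889 at 48 h and 783, 679 and 465 at 72 h, so each induced array was far above the uninduced ones and the 72 h arrays lay below the 48 h arrays without overlap. The difference of -0.71 ± 0.26 (log2, SE, 3 arrays per time) did not pass (limma adjusted p = 0.352, and 0.0941 without induced 24 h replicate 1). The other Neurog1 probe set read 52.3, 83.0 and 128 at 48 h and 48.9, 61.9 and 180 at 72 h, which overlap. The sources used here do not say whether either probe set detects the transgene or the cells' own gene.

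The neuronal cytoskeleton had the largest share of called members among the 33 gene lists. Of its 40 tested members, 7 rose and 0 fell, against 0.644% called higher over all genes, and its median difference was 0.73 on the log2 scale, against -0.03 over all genes. The difference was above 0 in 37 of the 40. Without induced 24 h replicate 1, 19 of the 40 passed as higher and 0 as lower, against 2.4% and 1.68% of all genes.

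Neurofilaments are the intermediate filaments that fill the shafts of large axons. Nefm, the medium subunit, read 472, 702 and 216 at 48 h and 2762, 2612 and 3231 at 72 h, so every 72 h array was several times above every 48 h array. This was the largest fitted rise among the called genes, at 2.73 ± 0.43 log2 (6.63-fold; limma adjusted p = 0.00918, 3 arrays per time). Nefl, the light subunit, read 1307, 1541 and 694 at 48 h and 5650, 5975 and 8139 at 72 h. Its rise was 2.52 ± 0.29 log2 (5.74-fold; limma adjusted p = 0.00179). In both genes replicate 3 was the lowest array at 48 h and the highest at 72 h. Prph, the intermediate filament of peripheral neurons, read 53.7, 75 and 60.0 at 48 h and 114, 110 and 116 at 72 h, and its difference of 0.72 ± 0.30 did not pass (limma adjusted p = 0.475).

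Mapt, which encodes the axonal microtubule protein tau, followed another course. It read 165, 173 and 235 in uninduced cells and 28.9, 26.5 and 30.9 at 24 h. It then read 41.2, 51.5 and 17.3 at 48 h and 317, 353 and 203 at 72 h. The level was thus low at 24 h and 48 h, and the 72 h arrays overlapped those of uninduced cells. Its rise from 48 h to 72 h was 2.57 ± 0.29 log2 (limma adjusted p = 0.00179), and its 3 other probe sets differed in the same direction.

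Other microtubule genes rose as well. Stmn4, a tubulin-binding stathmin, read 87.8, 182 and 75.2 at 48 h and 732, 686 and 510 at 72 h (2.40 ± 0.36 log2, limma adjusted p = 0.00704). Ttll7, an enzyme that adds glutamate chains to tubulin, read 107, 134 and 121 at 48 h and 627, 644 and 723 at 72 h (2.32 ± 0.29 log2, limma adjusted p = 0.00292). The remaining called members of the list were Tubb2a, a beta-tubulin (1.62), Dclk1, a doublecortin-like kinase (1.34), and Ank2, an ankyrin of the membrane skeleton (1.28), named after their values were seen. Of the 5 other probe sets of Ank2, 2 differed in the opposite direction, and the calls of Ank2 and Tubb2a were lost with the mean of all probe sets (limma adjusted p = 0.461 and 0.108). Nefm lost its call without 72 h replicate 1 (limma adjusted p = 0.0563), and Stmn4 without 48 h replicate 3 or 72 h replicate 1 (at most 0.0557). Tubb2a, Dclk1 and Ank2 lost theirs without 6, 5 and 5 of the 12 arrays, with adjusted p up to 0.0974, 0.13 and 0.104. Nefl, Mapt and Ttll7 kept theirs without any single array.

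Several general markers of young neurons were already high at 48 h. Dcx, the microtubule protein of migrating neurons, read 928, 1073 and 720 at 48 h and 2238, 2224 and 1754 at 72 h. Its difference of 1.19 ± 0.31 log2 did not pass with all arrays (limma adjusted p = 0.112) and passed without induced 24 h replicate 1 (0.0113). The same held for Map2, a dendritic microtubule protein (0.67 ± 0.42; 0.843 and 0.0192), and for Gap43, a growth cone protein (0.97 ± 0.31; 0.248 and 0.0383). Tubb3, the neuronal beta-tubulin, read 3781, 3586 and 3101 at 48 h and 3910, 4059 and 4476 at 72 h, a difference of 0.25 ± 0.40 that passed in neither fit. Stmn2, another stathmin, gave 0.51 ± 0.28, which also passed in neither. Unlike the others, Stmn2 was as high in uninduced cells (3222 to 3649) as at 48 h (2528 to 4150), with 686 to 1654 at 24 h.

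**Figure D2:**
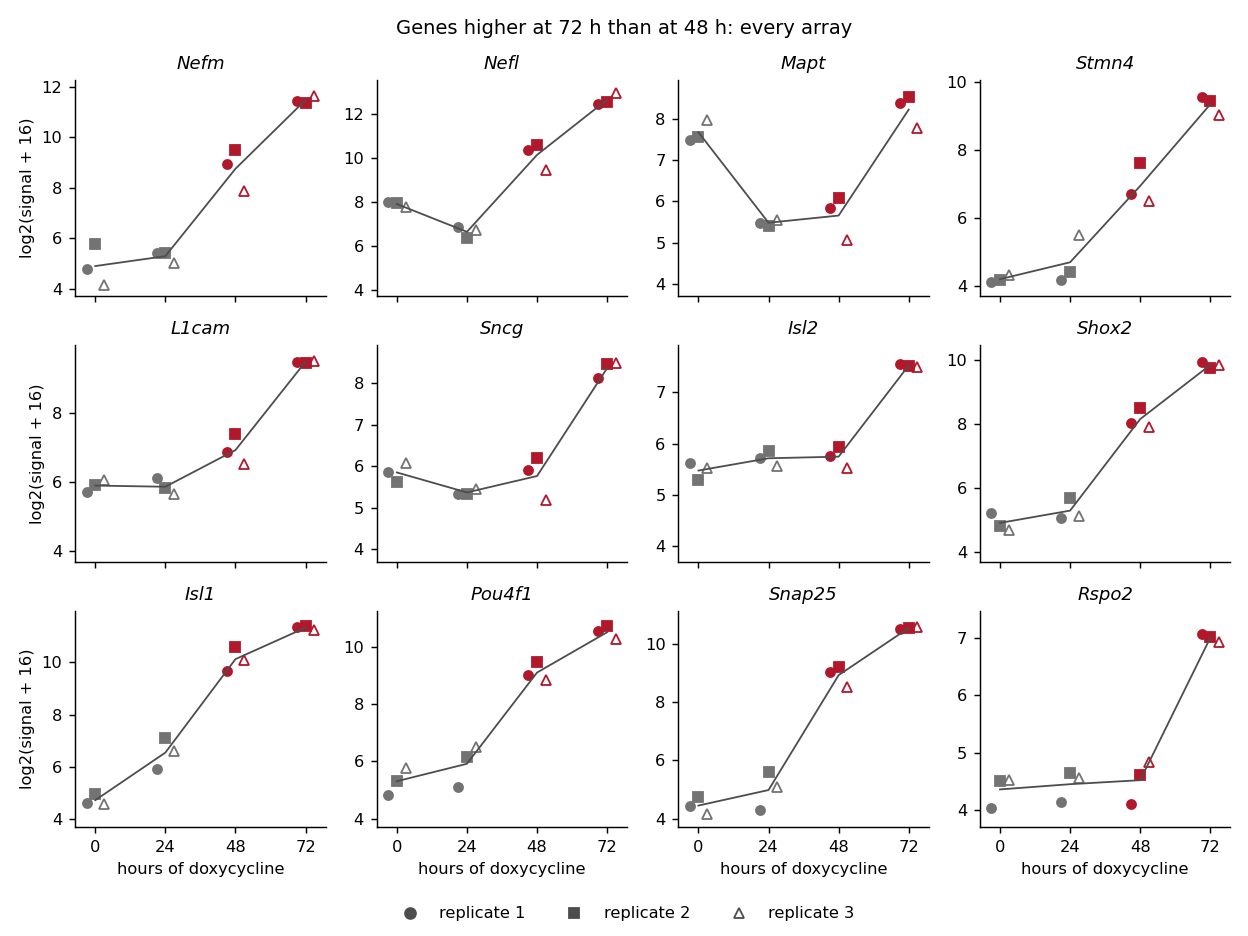
Each panel plots log2(signal + 16) of 1 gene on all 12 arrays against hours of doxycycline, with the vertical axis starting near the level of no signal; circles, squares and triangles are replicates 1, 2 and 3, the line joins group means, and 48 h and 72 h are in red. All 72 h arrays lie above all 48 h arrays in each panel. The rule that named Nefm, Nefl, Mapt, Stmn4, L1cam, Sncg and Rspo2 required this, and 24.1% of all tested genes had no overlap in either direction. Isl1 and Pou4f1 did not pass the test with all arrays and passed without induced 24 h replicate 1.

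Genes of the cell surface and matrix passed singly. L1cam, an adhesion molecule of growing axons, read 101, 151 and 75.1 at 48 h and 696, 677 and 709 at 72 h. It was at 34.5 to 53.6 at 24 h and 36.4 to 51.0 in uninduced cells, so most of its level was gained on the third day. Its rise was 2.55 ± 0.25 log2 (5.85-fold; limma adjusted p = 0.00105), and it was the only member of the axon guidance list to pass with all arrays, of 48 tested. Of all genes 0.644% were called higher with all arrays. The axon guidance list had a median of 0.36 log2, against -0.03 over all genes, and 38 of its 48 members were above 0. Without induced 24 h replicate 1 it had 4 members called higher and 0 lower, against 2.4% and 1.68% of all genes.

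St8sia4 encodes an enzyme that builds polysialic acid on the adhesion molecule NCAM. It read 71.6, 102 and 47.9 at 48 h and 418, 385 and 408 at 72 h (2.27 ± 0.32 log2, limma adjusted p = 0.00567). Edil3, a secreted integrin-binding protein, read 53.9, 51.7 and 20.4 at 48 h and 347, 319 and 198 at 72 h (2.41 ± 0.33, limma adjusted p = 0.00408). The 5 other Edil3 probe sets differed by 0.27 to 1.93 log2, in the same direction. Itgb8, an integrin subunit, read 125, 92.6 and 41.1 at 48 h and 342, 351 and 458 at 72 h (2.05 ± 0.35, limma adjusted p = 0.0159). Itgb8 was the only one of 38 tested members of the extracellular matrix and integrin list to be called higher (0.644% over all genes). In that list 0 were called lower, with a median of -0.14 and 14 above 0. The call of Itgb8 was lost without 48 h replicate 3 or any single 72 h array (limma adjusted p up to 0.0735). L1cam, St8sia4 and Edil3 kept theirs without any single array.

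Signalling molecules were represented by single genes of their lists. Rspo2, a secreted protein that strengthens Wnt signalling, was near the floor until 48 h (1.23, 8.45 and 12.7) and read 118, 113 and 105 at 72 h. Its signal was below the median of its array on all 9 earlier arrays, so it entered the test only through the 72 h arrays. Its rise was 2.48 ± 0.24 log2 (limma adjusted p = 0.00105), a call that was lost with a pseudocount of 1 (0.13). The other Rspo2 probe set differed by 0.45 log2, in the same direction. Of 34 tested members of the Wnt list, Rspo2 rose and Wnt8a fell, against 0.644% called higher and 0.152% lower over all genes. Fgf13, an intracellular relative of the fibroblast growth factors that binds sodium channels and microtubules, read 236, 273 and 142 at 48 h and 753, 732 and 744 at 72 h (1.75 ± 0.29, limma adjusted p = 0.0148). Fgf13 lost its call without 48 h replicates 1 or 3 or 72 h replicates 1 or 2 (limma adjusted p up to 0.0901).

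The other genes among the 15 largest rises do not share 1 function. Sncg, the synuclein found mainly in peripheral and sensory neurons, read 43.9, 57.8 and 20.6 at 48 h and 265, 338 and 347 at 72 h (2.60 ± 0.26 log2, limma adjusted p = 0.00105). Its level in uninduced cells was 32.9 to 52.0, which the 48 h arrays overlapped. Ppp1r1c, an inhibitor of protein phosphatase 1, read 12.5, 46.0 and 24.3 at 48 h and 235, 224 and 270 at 72 h (2.64 ± 0.30, limma adjusted p = 0.00179). Akap6, an anchoring protein for protein kinase A, read 69.8, 99.2 and 22.8 at 48 h and 452, 418 and 307 at 72 h (2.47 ± 0.34, limma adjusted p = 0.00408). These 3 genes kept their calls without any single array. Ppp1r1c and Akap6 passed the filter for testing only through the 72 h arrays. The other probe set of Akap6 differed by 0.32 log2, in the same direction.

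Fkbp1b, a small protein that binds calcium release channels, rose by 2.26 ± 0.27 log2 from 96.2 to 127 at 48 h to 502 to 718 at 72 h (limma adjusted p = 0.00189). Lin7a, a scaffold protein of synapses and epithelia, rose by 2.20 ± 0.30 (limma adjusted p = 0.00408). Thsd7a, a membrane protein with thrombospondin repeats, rose by 2.24 ± 0.42 (limma adjusted p = 0.0259). In Thsd7a, 72 h replicate 3 read 340 against 844 and 843 in the others, and its call was lost without 4 of the 12 arrays (limma adjusted p up to 0.152 without 72 h replicate 1). Hrk, a gene for a death-promoting BH3 protein of neurons, read 35.5, 52.0 and 24.0 at 48 h and 205, 216 and 129 at 72 h. It was the only one of 29 tested p53 target and apoptosis genes to pass (1.91 ± 0.28 log2, limma adjusted p = 0.00665). The share called higher over all genes was 0.644%. The call of Hrk was lost without 72 h replicate 1 (limma adjusted p = 0.0514).

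Transcription factors of sensory and cranial neurons were tested as a list of 21. Of these, 2 rose, 0 fell, and 17 were above 0, with a median of 0.31 log2. Over all genes 0.644% were called higher and 0.152% lower, with a median of -0.03. Isl2, a LIM-homeodomain factor of sensory and motor neurons, read 38.4, 45.3 and 30.2 at 48 h and 171, 167 and 164 at 72 h. It had stayed between 22.9 and 45.3 on all 9 arrays before 72 h, and its rise was 1.78 ± 0.20 log2 (limma adjusted p = 0.00179). Shox2, a homeodomain factor of touch-sensing neurons, read 248, 352 and 226 at 48 h and 978, 842 and 915 at 72 h (1.69 ± 0.25, limma adjusted p = 0.00699). Shox2 lost its call without 48 h replicate 3 or 72 h replicate 1 (limma adjusted p at most 0.0532), and Isl2 kept its call without any single array.

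The factors that define most sensory neurons had higher levels at 72 h without passing with all arrays. Isl1, another LIM-homeodomain factor, read 803, 1523 and 1067 at 48 h and 2588, 2630 and 2391 at 72 h (1.20 ± 0.31 log2; limma adjusted p = 0.113, and 0.00833 without induced 24 h replicate 1). Pou4f1, known as Brn3a, read 499, 690 and 437 at 48 h and 1485, 1656 and 1207 at 72 h (1.41 ± 0.36; 0.107 and 0.00661). Tlx3, a homeodomain factor of excitatory sensory relay neurons that was named after its values were seen, read 52.3, 43.0 and 21.7 at 48 h and 122, 126 and 129 at 72 h (1.41 ± 0.30; limma adjusted p = 0.0543 and 0.00991). In each of these genes the 72 h arrays lay above all 48 h arrays, and 24.1% of all tested genes had no overlap in either direction. Without induced 24 h replicate 1, 5 of the 21 factors passed as higher and 0 as lower, against 2.4% and 1.68% of all genes.

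Receptors through which sensory neurons read trophic factors did not pass with all arrays in any of 15 tested genes, whose median was 0 with 8 above 0. Without induced 24 h replicate 1, Ret and Ntrk2 passed as higher and Nrtn, a ligand gene of the GDNF family, as lower (-0.85 log2, limma adjusted p = 0.0366). In that fit 2.4% of all genes were called higher and 1.68% lower. Ret, the receptor subunit for the GDNF family, read 317, 615 and 504 at 48 h and 1519, 1415 and 929 at 72 h (1.41 ± 0.35 log2; limma adjusted p = 0.1, and 0.023 without induced 24 h replicate 1). Ntrk2, the receptor for BDNF, read 101, 101 and 72.1 at 48 h and 170, 158 and 234 at 72 h (0.92 ± 0.23; 0.1 and 0.0234). Its 7 other probe sets, which were not tested, differed by -0.39 to 2.92 log2, 1 of them in the opposite direction. Ntrk3, the receptor for neurotrophin-3, gave 1.20 ± 0.35, which passed in neither fit (limma adjusted p = 0.177 and 0.0515).

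Factors of spinal cord and hindbrain interneurons gave 2 rises of 21 tested, against 0.644% over all genes, with a median of 0.03 log2. Dbx1, a homeodomain factor of ventral interneuron progenitors, read 46.8, 26.7 and 30.3 at 48 h and 185, 172 and 153 at 72 h (1.89 ± 0.22, limma adjusted p = 0.00179). Pou3f3, known as Brn1, read 127, 106 and 67.5 at 48 h and 304, 279 and 273 at 72 h (1.41 ± 0.27, limma adjusted p = 0.0281). Dbx1 kept its call without any single array, whereas Pou3f3 lost its call without any 1 of the 6 arrays at 48 h and 72 h (limma adjusted p up to 0.186) and with the mean of its probe sets (0.129).

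The letters CAGATG form an E-box of the kind that Neurog and Neurod factors are known to bind. RefSeq promoters (build GRCm38.p6, 250 bases before to 50 after the start of a gene) were searched for them on both strands. They matched 57 of the 76 genes called higher by symbol, and 15 of these held the letters (26.3%). Of the 18 genes called lower, 14 had a promoter in the table and 4 held the letters (28.6%), against 1282 of 9572 tested genes (13.4%). The shares are a description of letters in a window and not of binding. The 250 bases before the start are shown for the 3 largest rises that held the letters, in capitals (CATCTG is the same box read on the other strand), each 5′ to 3′ in the direction of its gene. Sncg lies at chr14:34374670-34374919 on the minus strand, L1cam at chrX:73880791-73881040 on the minus strand and Akap6 at chr12:52699133-52699382 on the plus strand.
Sncg: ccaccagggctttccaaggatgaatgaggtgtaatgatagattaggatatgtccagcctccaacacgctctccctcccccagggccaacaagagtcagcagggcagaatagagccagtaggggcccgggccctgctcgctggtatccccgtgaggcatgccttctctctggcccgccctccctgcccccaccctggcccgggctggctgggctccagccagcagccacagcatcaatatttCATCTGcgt
L1cam: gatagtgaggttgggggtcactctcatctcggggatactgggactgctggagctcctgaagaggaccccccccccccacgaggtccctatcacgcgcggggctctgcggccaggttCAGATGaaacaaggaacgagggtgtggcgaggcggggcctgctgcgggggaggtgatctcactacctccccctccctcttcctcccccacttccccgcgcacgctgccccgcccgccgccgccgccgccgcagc
Akap6: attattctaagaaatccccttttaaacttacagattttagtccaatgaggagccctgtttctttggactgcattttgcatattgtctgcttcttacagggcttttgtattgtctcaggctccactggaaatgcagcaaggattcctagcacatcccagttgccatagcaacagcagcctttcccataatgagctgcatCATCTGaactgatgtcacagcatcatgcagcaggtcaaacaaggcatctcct
The box began 9 bases before the start in Sncg, 134 bases before it in L1cam and 52 bases before it in Akap6.

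Of 34 tested synapse and vesicle release genes, 3 rose and 0 fell, against 0.644% called higher over all genes. The median was 0.36 log2, with 27 above 0. Without induced 24 h replicate 1 the counts were 6 and 0, against 2.4% and 1.68% of all genes. Snap25, which drives the fusion of vesicles with the membrane, read 504, 577 and 349 at 48 h and 1440, 1475 and 1484 at 72 h (1.62 ± 0.32, limma adjusted p = 0.0335). Syt11, a synaptotagmin, read 292, 354 and 147 at 48 h and 741, 968 and 711 at 72 h (1.62 ± 0.31, limma adjusted p = 0.0273). Cadps, which primes dense-core vesicles, read 230, 259 and 136 at 48 h and 716, 721 and 516 at 72 h (1.60 ± 0.27, limma adjusted p = 0.0155). In all 3 genes the 48 h arrays were already above each 24 h array, and 48 h replicate 3 was the lowest of its group. Their calls were lost without 7, 5 and 4 of the 12 arrays, with limma adjusted p up to 0.215 for Snap25 without 48 h replicate 3, 0.153 for Syt11 without 72 h replicate 2 and 0.103 for Cadps without 72 h replicate 1.

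Ion channels, neuronal splicing factors and transmitter receptors gave 1 called gene each. The shares over all genes were 0.644% called higher and 0.152% lower. Scn3a, a sodium channel of young neurons, read 62.4, 102 and 38.0 at 48 h and 294, 212 and 174 at 72 h (1.58 ± 0.32 log2, limma adjusted p = 0.0407; 1 of 22 tested channels). Its other probe set differed in the opposite direction, and its call was lost with the mean of both (0.135) and without 9 of the 12 arrays (up to 0.234). Rbfox1, a splicing factor of neurons, read 55.7, 77.0 and 26 at 48 h and 219, 153 and 302 at 72 h (1.83 ± 0.31, limma adjusted p = 0.0146; 1 of 21 tested). Of its 3 other probe sets, 1 differed in the opposite direction, and the call was lost without 48 h replicates 1 or 3 or 72 h replicate 1 (up to 0.0809). Drd2, the dopamine D2 receptor and the only one of 17 tested receptors to pass, went the other way: it read 53, 45.5 and 59.6 at 48 h and 20.4, 13.5 and 19.4 at 72 h. Its fall of 1.03 ± 0.20 log2 (limma adjusted p = 0.0333) was lost with the replicate block (0.0513) and without 7 of the 12 arrays (up to 0.201).

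The falls were fewer. Of the 18 genes 12 had been called higher at 48 h than at 24 h, as had 50 of the 76 rises and 1213 of all 11806 genes (10.3%); that step shares the 48 h arrays. Gal and Grp, both of them genes of neuropeptides, were the 2 called members of the 18 tested neuropeptides and granins, and 0 were called higher. Over all genes 0.152% were called lower and 0.644% higher. The median of that list was 0.06 log2 with 10 of 18 above 0, so the list as a whole did not fall. Gal, which encodes galanin, read 961, 754 and 1347 at 48 h and 179, 192 and 281 at 72 h, after 155, 51.9 and 44.2 at 24 h. It therefore peaked at 48 h among the times sampled, and its fall was 2.14 ± 0.38 on the log2 scale (limma adjusted p = 0.0215). Grp, which encodes gastrin-releasing peptide, read 46.4, 63.9 and 61.5 at 48 h and 2.61, 10.1 and 8.51 at 72 h, when it was below the median of its array on every array. It passed the filter for testing only through the 48 h arrays. Its fitted difference was -1.67 ± 0.25 log2 (limma adjusted p = 0.00697). Gal lost its call without 4 of the 12 arrays (up to 0.137 without 48 h replicate 3) and Grp without 72 h replicate 1 (0.0514).

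Several genes known from other tissues fell as well. Cryba1, a lens crystallin gene, read 656, 592 and 438 at 48 h and 152, 166 and 130 at 72 h (-1.79 ± 0.25 log2, limma adjusted p = 0.00408). Myh7b, a slow myosin heavy chain gene, read 270, 245 and 184 at 48 h and 55.4, 48.0 and 28.4 at 72 h (-2.07 ± 0.31, limma adjusted p = 0.00699). Tnnc1, the troponin C gene of slow and cardiac muscle, read 165, 215 and 200 at 48 h and 72.9, 81.7 and 64.3 at 72 h (-1.23 ± 0.24, limma adjusted p = 0.0335). Pdlim4, an actin-associated LIM protein gene, read 196, 211 and 266 at 48 h and 43.8, 46.7 and 24.3 at 72 h (-2.16 ± 0.45, limma adjusted p = 0.0484). Each of these 4 genes was higher at 48 h than on any 24 h array. Cryba1 and Myh7b kept their calls without any single array. Tnnc1 lost its call without 7 of the 12 arrays (up to 0.181), and Pdlim4 without 9 of them (up to 0.242, both without 48 h replicate 3) and with the replicate block (0.0513).

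C1s1, a protease gene of the complement pathway, read 148, 155 and 186 at 48 h and 40.6, 55.5 and 27.6 at 72 h (-1.67 ± 0.24 log2, limma adjusted p = 0.00567). Pygl, the liver form of glycogen phosphorylase, read 130, 120 and 109 at 48 h and 27.8, 29.7 and 27.3 at 72 h (-1.61 ± 0.29, limma adjusted p = 0.022). Both had returned to near their 24 h levels of 47.1 to 78.1 and 7.12 to 27.9. Tmem114, a small membrane protein gene, read 44.7, 55.7 and 56.9 at 48 h and 5.30, 3.61 and 4.49 at 72 h (-1.74 ± 0.24, limma adjusted p = 0.00408). Pygl and Tmem114 passed the filter for testing only through the 48 h arrays. Ankrd33b fell from 96.0 to 135 at 48 h to 22 to 28.7 at 72 h (-1.71 ± 0.27, limma adjusted p = 0.00965), but 1 of its 2 other probe sets differed in the opposite direction and the mean of all of them did not pass (0.445). Pygl lost its call without any 1 of the 6 arrays at 48 h and 72 h (up to 0.109) and Ankrd33b without 48 h or 72 h replicate 1 (up to 0.0633), while C1s1 and Tmem114 kept theirs.

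A smaller set was already high at 24 h and fell on the third day. Wnt8a, a Wnt ligand gene of the early embryo, read 84.4, 44.2 and 51.4 at 24 h, 84.0, 64.5 and 75 at 48 h and 10.3, 20.4 and 3.17 at 72 h (-1.77 ± 0.28 log2 from 48 h to 72 h, limma adjusted p = 0.00918). Ms4a4d, a membrane protein gene, read 207, 154 and 222 at 24 h, 137, 193 and 279 at 48 h and 60.3, 42.8 and 25.5 at 72 h (-1.89 ± 0.33, limma adjusted p = 0.0195). Ecscr, a surface protein gene known from endothelium, read 237, 212 and 239 at 48 h and 84.1, 84.8 and 34.2 at 72 h (-1.62 ± 0.31, limma adjusted p = 0.0279). Uninduced cells were at 3.4 to 11 for Wnt8a, 2.26 to 19.9 for Ms4a4d and 31.6 to 57.7 for Ecscr, so the 72 h arrays overlapped them for Wnt8a and Ecscr and stayed above them for Ms4a4d. These calls were lost without 3, 5 and 6 of the 12 arrays, with limma adjusted p up to 0.0581, 0.127 and 0.152.

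Pcolce and Tulp2 fell on the second day as well as on the third. Pcolce, which encodes an enhancer of procollagen processing, read 1752, 1199 and 2271 in uninduced cells, 282, 295 and 392 at 48 h and 74.5, 68.6 and 67.4 at 72 h (-1.96 ± 0.32 log2 on the third day, limma adjusted p = 0.0114). Tulp2, a tubby-like gene of the testis, read 21.2, 33.7 and 50 at 48 h and 4.80, 3.35 and 1.93 at 72 h (-1.36 ± 0.25, limma adjusted p = 0.0258). Their calls were lost without 3 and 5 of the 12 arrays, with limma adjusted p up to 0.0836 and 0.154, both without 48 h replicate 3.

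**Figure D3:**
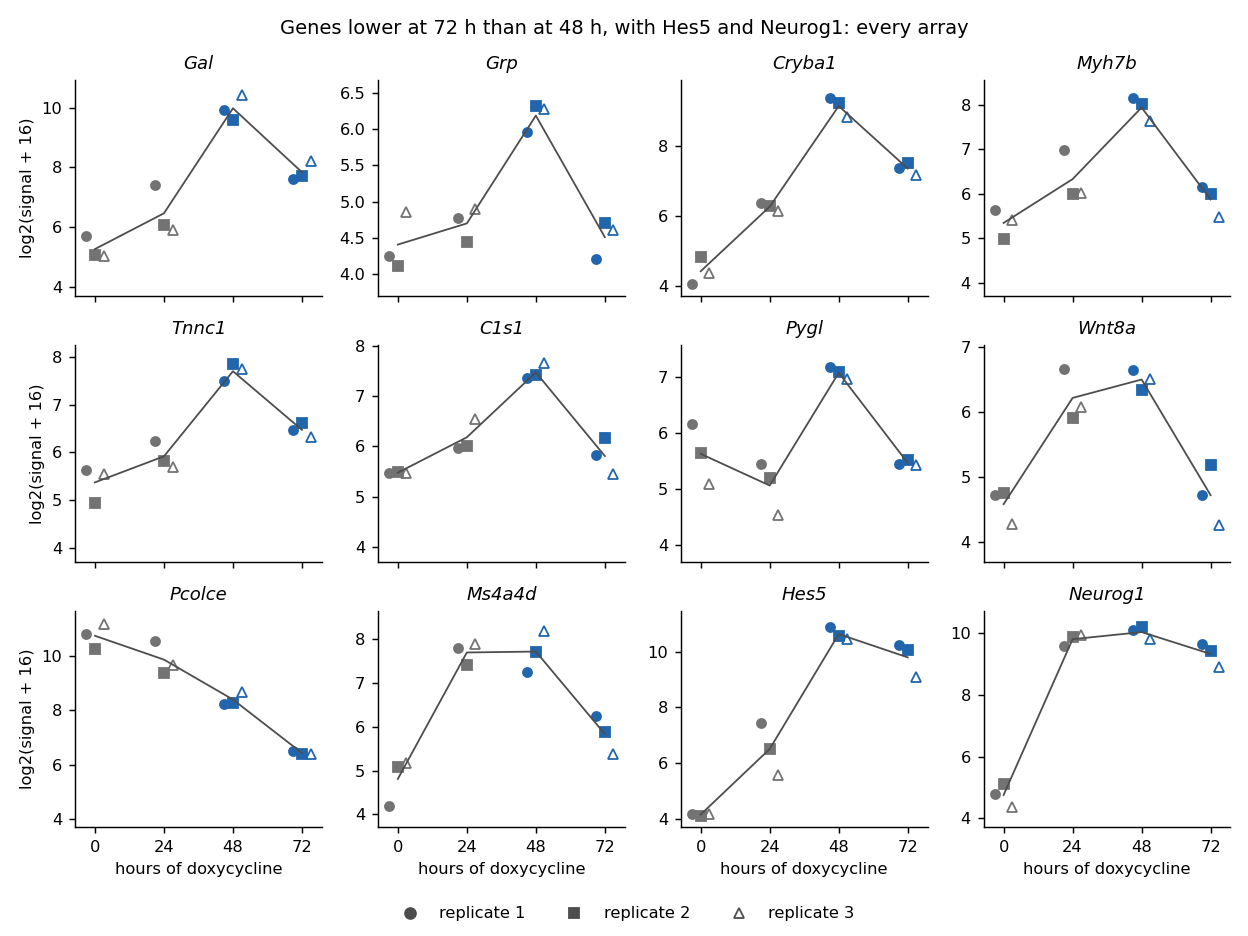
Panels plot log2(signal + 16) on all 12 arrays against hours of doxycycline for 10 genes called lower at 72 h and for Hes5 and Neurog1, which were not called; circles, squares and triangles are replicates 1, 2 and 3, the line joins group means, and 48 h and 72 h are in blue. Gal, Grp, Cryba1, Myh7b, Tnnc1, C1s1 and Pygl are highest at 48 h, while Wnt8a and Ms4a4d are at like levels at 24 h and 48 h.

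Proneural targets and the Notch pathway, which are active while neurons are being chosen, had 0 called members of 22 and 30 tested. Of all genes 0.796% were called. Dll1, the Notch ligand gene that proneural factors switch on, read 670, 605 and 1048 at 48 h and 420, 469 and 317 at 72 h (-0.90 ± 0.32 log2; limma adjusted p = 0.308, and 0.0526 without induced 24 h replicate 1). Hes5, the main Notch effector in neural cells, read 1861, 1478 and 1398 at 48 h and 1191, 1040 and 532 at 72 h (-0.84 ± 0.41; 0.658 and 0.135). The 72 h arrays lay below all 48 h arrays in both genes, and 24.1% of all tested genes had no overlap in either direction. The Notch list had a median of -0.29 log2 with 8 of 30 above 0. Without induced 24 h replicate 1 it had 1 member called higher and 4 lower, against 2.4% and 1.68% of all genes. Those 4, named after their values were seen, were the ligand genes Dll3 and Dll4, the Hes antagonist Hes6 and the glycosyltransferase gene Mfng. With the replicate block Dll3 passed too (limma adjusted p = 0.0448).

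Downstream factors of the cascade did not move together. Neurod1 read 2497, 3303 and 3179 at 48 h and 2534, 3024 and 2712 at 72 h, which overlap (-0.11 ± 0.45 log2). Neurod4 gave -0.61 ± 0.39, Nhlh1 0.13 ± 0.35 and Nhlh2 0.95 ± 0.41, and none of these 4 genes passed with or without induced 24 h replicate 1 (limma adjusted p from 0.118 to 1). Without that array Ebf1, Ebf3 and Myt1, which act in the later steps of neuronal differentiation, passed as higher, and Hes6 and Cbfa2t2 as lower, all 5 named after their values were seen. In that fit 2.4% of all genes were called higher and 1.68% lower. With all arrays the list had a median of 0.22 log2 with 12 of 22 above 0.

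The Id genes encode inhibitors that hold basic helix-loop-helix factors off DNA and are targets of BMP signals. Id1 read 1466, 1038 and 2384 at 48 h and 221, 387 and 796 at 72 h (-1.87 ± 0.52 log2; limma adjusted p = 0.151, and 0.023 without induced 24 h replicate 1). Id3 read 712, 303 and 1666 at 48 h and 291, 338 and 1540 at 72 h, so its arrays overlapped and replicate 3 was the highest at both times (-0.40 ± 0.65; passed in neither). Of 27 tested BMP, TGF-beta and Id genes 0 passed with all arrays. Without induced 24 h replicate 1 Smad1 was called higher and Id1, Bmp4 and Tgfb1 lower, against 2.4% and 1.68% of all genes.

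Naive pluripotency genes had 0 of 38 called over the third day, against 0.796% of all genes. Pou5f1, the gene of the factor Oct4, read 4936 to 6063 in uninduced cells, 190, 438 and 171 at 48 h and 294, 257 and 78.7 at 72 h (-0.38 ± 0.45 log2, limma adjusted p = 1). Nanog read 90.6, 309 and 243 at 48 h and 156, 183 and 91.6 at 72 h (-0.43 ± 0.38), and like Pou5f1 its arrays overlapped. Sox2, which neural progenitors also express, read 2684, 2874 and 2817 at 48 h and 2081, 1918 and 2425 at 72 h, without overlap (-0.39 ± 0.16; limma adjusted p = 0.471, and 0.119 without induced 24 h replicate 1). In the whole list 10 were above 0, with a median of -0.31 log2. Without that array Tfcp2l1, Dppa4 and Lin28a passed as lower, against 1.68% of all genes. With the replicate block Prdm14 passed as higher (1.12 ± 0.40; limma adjusted p = 0.0476, against 0.31 without the block).

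Cell cycle and growth lists had few or no called members and medians at or below that of all genes. The median was -0.27 log2 for 45 genes of mitosis and G2 phase, with 5 above 0, and -0.14 for 42 genes of DNA replication, with 4 above 0. Neither had a member called with all arrays (0.796% of all genes). Without induced 24 h replicate 1 they had 3 and 1 called lower (1.68% of all genes). Mki67 and Top2a, genes of dividing cells, gave -0.27 ± 0.70 and -0.29 ± 0.55, and the inhibitors of cell cycle kinases Cdkn1a and Cdkn1c gave -0.15 ± 0.35 and -0.36 ± 0.36, and none passed in either fit. Induced 24 h replicate 1 read 95 for Mki67 against 1353 and 1316 in the other 24 h arrays, and the standard errors come from a spread that includes it. The median was -0.31 for 31 glycolysis and hypoxia genes, with 0 called and 2 called lower without that array. It was -0.19 for 35 ribosomal protein genes, of which 1 was above 0 and 0 were called in either fit.

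The remaining lists held 0 or 1 called genes beside those named above. Hox genes (13 tested, median 0.25 log2), retinoic acid signalling (14, 0.06) and cholesterol synthesis (23, 0.08) had 0 calls in both fits. Respiratory chain genes (48 tested, -0.11) and primed pluripotency genes (17, -0.15) likewise had 0. The ATF4 stress response, which doxycycline itself is known to bring about in cells, had a median of 0.16 over 31 genes, with 0 called, and 1 higher and 1 lower without induced 24 h replicate 1. Neural progenitor and radial glia genes had 0 of 32 called, with a median of -0.22 and 11 above 0. Without that array Gli2 passed as lower (-0.78 log2, limma adjusted p = 0.035). In that fit 2.4% of all genes were called higher and 1.68% lower. Of the members named by rule, Nes and Vim gave 0.17 ± 0.26 and 0.24 ± 0.21 and Fabp7 gave 1.17 ± 0.65, and none of the 3 passed in either fit. The Nes probe set tested was dim, at 33.2 to 58.4 at 48 h and 34.0 to 74.6 at 72 h. Its 2 other probe sets, which were not tested, differed by 0.15 and 1.81 log2.

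**Figure D4:**
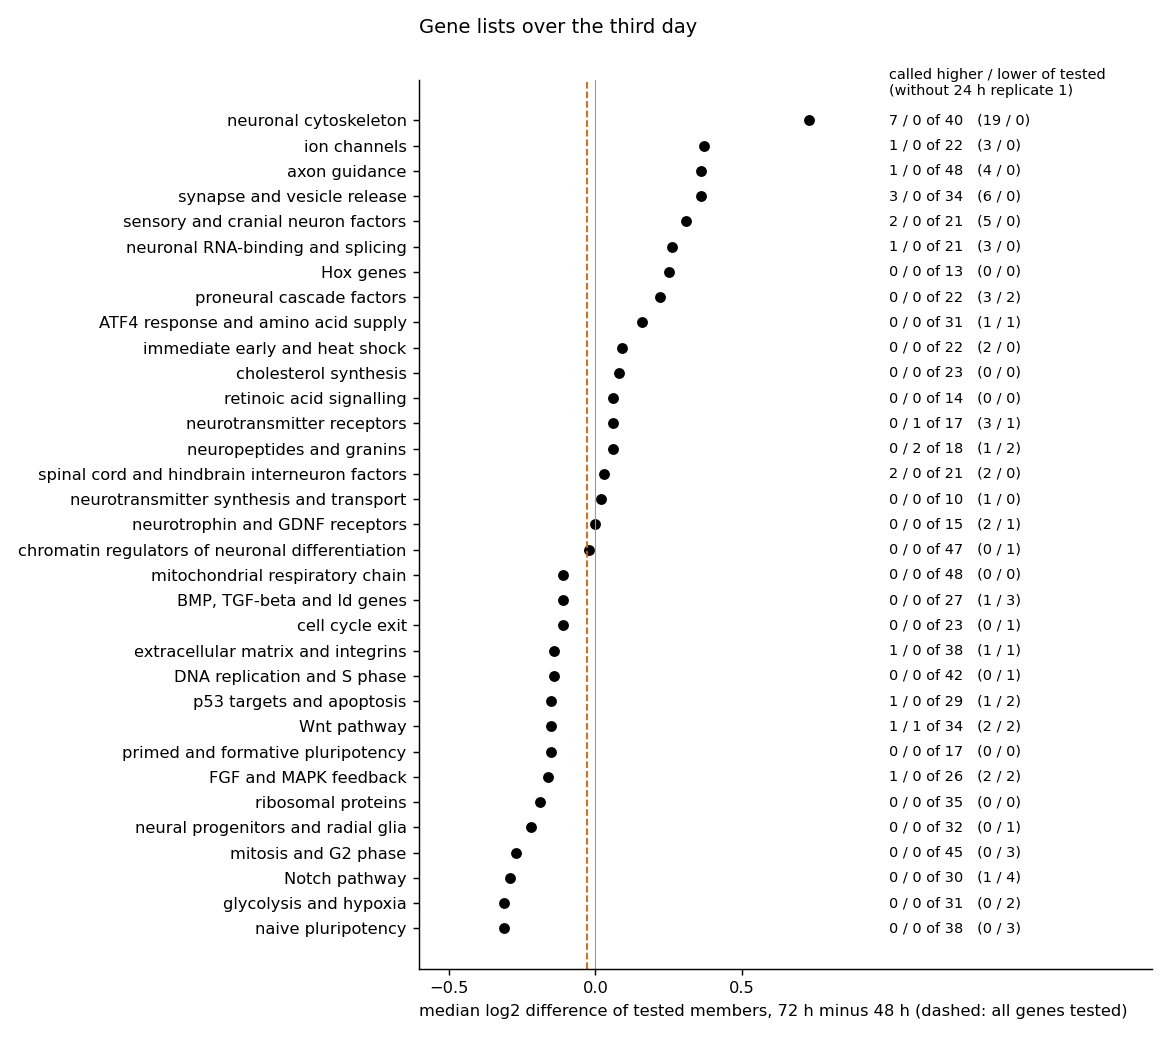
Points give the median log2 difference of 72 h minus 48 h over the tested members of each of the 33 gene lists, and the dashed line gives that of all tested genes, -0.03. Numbers at the right count members called higher and lower, with the counts without induced 24 h replicate 1 in brackets. Over all tested genes the shares were 0.644% higher and 0.152% lower, and 2.4% and 1.68% without that array. The neuronal cytoskeleton has the highest median, 0.73.

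Markers of cell types were summed as signal per array, a description of the bulk culture in which more cells of a type and more RNA per cell cannot be told apart. The 10 postmitotic neuron markers summed to 10423 to 14989 at 48 h and 22862 to 23260 at 72 h. In uninduced cells they summed to 3847 to 4332, of which Stmn2 alone was 3222 to 3649. The 9 sensory neuron markers on the array summed to 2106 to 3348 at 48 h and 5409 to 6531 at 72 h, with Avil, an actin regulator gene of sensory neurons, below the median of its array at 48 h. The 9 ES cell markers summed to 5814 to 8808 at 48 h and 5048 to 5741 at 72 h, against 43719 to 50083 in uninduced cells. Most of their sum at 48 h and 72 h was Dppa5a (2206 to 4675 and 1957 to 2308) and Sox2 (2684 to 2874 and 1918 to 2425). The arrays labelled as ES cells at 48 h and 72 h thus had lower ES cell sums and higher neuronal sums than uninduced cells. The 7 astroglial markers summed to 234 to 253 in uninduced cells, 738 to 829 at 48 h and 498 to 753 at 72 h, mostly Slc1a2 (544 to 624 at 48 h and 410 to 584 at 72 h). Gfap, Aqp4, S100b and Gjb6 of that list were below the median of their array on every array at 48 h and 72 h.

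The 10 markers of fibroblasts and feeder cells summed to 279 to 815 at 48 h and 1744 to 1965 at 72 h. Most of the sum at 72 h was Acta2 and Tagln, genes of contractile actin filaments, at 818 to 1287 and 342 to 836 at 72 h against 46.9 to 449 and 42.0 to 111 at 48 h. Of the other markers, Dcn, Lum, Pdgfrb and Thy1 were below the median of their array on all 72 h arrays. The collagen genes read 4.96 to 14.6 at 48 h and 12.5 to 40.2 at 72 h for Col1a1, 63.3 to 113 and 19.1 to 101 for Col1a2, and 1.57 to 26.1 and 0.666 to 64.2 for Col3a1, and Postn read 2.59 to 21.7 and 18.3 to 84.9. Of the 5 tested members 2 were above 0, and 0 were called with all arrays. The Acta2 difference was 2.80 ± 0.76 log2 (limma adjusted p = 0.134, 0.0493 without induced 24 h replicate 1 and 0.0184 with the replicate block), and 1 of its 2 other probe sets differed in the opposite direction. Mesoderm and muscle markers summed to 191 to 380 at 48 h and 180 to 248 at 72 h, with Myod1, Myog, Myf5 and Tnnt2 below the median of their array at both times. Actc1 of that list read 15.7 to 47.8 at 48 h and 67.3 to 113 at 72 h, and passed without induced 24 h replicate 1 (1.20 ± 0.32 log2; limma adjusted p = 0.12 with all arrays and 0.0227 without it). The part of these cells in the rises was not tested.

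The difference between the third-day and second-day steps was tested directly, as 72 h minus 48 h less 48 h minus 24 h. It passed for 148 of 11806 genes (1.25%), among them 19 of the 94 called on the third day, which the same 48 h and 72 h arrays had chosen. The count was 3, 8 and 40 without 48 h replicates 1, 2 and 3, and 0 without the arrays numbered 3. It was 554 without induced 24 h replicate 1. Both steps use the 48 h arrays, so a high value at 48 h makes the second day's step larger and the third day's smaller. For Isl2 the second day gave 0.03 and the third 1.78, and the steps differed by 1.74 ± 0.34 (limma adjusted p = 0.0307). For Rspo2 they were 0.07 and 2.48 (difference 2.41 ± 0.42, limma adjusted p = 0.0193), for Sncg 0.40 and 2.60 (2.21 ± 0.46, 0.038) and for Mapt 0.17 and 2.57 (2.40 ± 0.50, 0.0411). For Nefm they were 3.47 and 2.73 and for Nefl 3.51 and 2.52, and the differences did not pass (limma adjusted p = 0.802 and 0.544). Rspo2 entered the tests only through its 72 h arrays, and its second-day step was read near the floor. Gal gave 3.50 on the second day and -2.14 on the third (difference -5.64 ± 0.67, limma adjusted p = 0.00438). Each of these 5 step differences was lost on leaving out single arrays: Gal without 48 h replicate 1 (limma adjusted p = 0.0509), Rspo2 without 48 h replicate 1 or 2 (up to 0.161), Isl2 without 6 of the 12 arrays (up to 0.175), and Sncg and Mapt without 10 of them (up to 0.17 and 0.183).

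The first day gives a comparison that shares no array with the third. At 24 h against uninduced cells limma called 1335 of 11806 genes (11.3%), 959 of them higher and 376 lower. Of the 76 rises of the third day 7 had been called higher and 4 lower there. Both Mapt (-2.20 log2) and Nefl (-1.27) were among the 4 that were lower at 24 h than in uninduced cells. Of the 18 falls 4 had been called higher, namely Ms4a4d (2.89), Cryba1 (1.85), Ecscr (1.69) and Wnt8a (1.63), and 1 lower, Tgif1. Of the 76 rises, 13 were below the median of their array on all 48 h arrays, as 6 of the 18 falls were on all 72 h arrays.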

How the data were processed

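The authors' deposited table gave MAS5 signals (the tool is from the submitters' processing notes), which are intensity values on a linear scale; version and settings are not stated in the sources used here. The 2% trimmed mean was 150 on each of the 12 arrays. Of 45101 probe sets, 34945 had 1 gene symbol in the platform annotation, 932 had several, 9160 had none and 64 were controls; 34741 matched RefSeq (GRCm38.p6) by Entrez identifier. The probe set with the highest mean stood for a gene. A gene was tested where it exceeded the array median on all 3 arrays of at least 1 group, which left 11806 of 18193 genes. A gene could thus enter through the group where it was high. Rspo2, Ppp1r1c, Akap6, Edil3 and Lin7a were among those that met this rule only at 72 h. Grp, Tmem114, Pygl, Drd2 and Pdlim4 were among those that met it only at 48 h. Deposited signals were taken to log2(signal + 16) and fitted in 1 model over 12 arrays (limma 3.58.1, R 4.3.3, lmFit and eBayes with trend, two-sided, Benjamini-Hochberg adjustment over all tested genes). The fitting code was tested on simulated data.

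Named genes were Neurog1, the 15 largest called rises and falls without overlap of arrays, up to 3 called genes each way per list, a set of standard markers, and called genes of the marker lists; others were named after their values were seen. The members, 33 gene lists and 12 marker lists were chosen with earlier results of these data known. Same-numbered arrays at 48 h and 72 h deviated together from their group means (r = 0.23, 0.421 and 0.577 for numbers 1, 2 and 3). Any pairing by number is thus read from the data and not from the labels. The main fit had group terms only and paired no arrays. Only the settings with a replicate block used the numbers as pairs. Numbers 1 and 2 also deviated together across numbers (r = 0.322 for 48 h replicate 2 with 72 h replicate 1 and 0.141 for the reverse), so the check sets number 3 apart more than it separates 1 from 2. In all, 26 alternative settings were tried, 23 of them planned.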

Additional observations from a re-analysis of the deposited data

Results flagged for a closer look

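In 18 of the 73 named genes the change over the third day (72 h minus 48 h) differed from that over the second (48 h minus 24 h). The test was limma's test of the difference, which passed for 148 of all 11806 tested genes (1.25%). Those called on the third day were named from the same 48 h and 72 h arrays, so their step differences are not independent of that choice. Among them Rspo2 entered the test only through the 72 h arrays, and Pdlim4, Tmem114, Grp, Pygl and Drd2 only through the 48 h arrays. Both steps use the 48 h arrays, and of the 18 only Cryba1 kept this call on leaving out each of the 12 arrays in turn. Each value is the log2 difference of the steps. Among genes called higher at 72 h it was 2.21 for Sncg, 2.4 for Mapt, 2.41 for Rspo2 and 1.74 for Isl2. Among those called lower it was -4.28 for Pdlim4, -5.64 for Gal, -3.68 for Myh7b, -4.68 for Cryba1, -2.83 for Tmem114 and -3.03 for Ankrd33b. It was -3.15 for Grp, -2.96 for C1s1, -3.63 for Pygl, -3.02 for Tnnc1 and -1.96 for Drd2. In these 11 genes the second day was a rise and the third a fall. For 3 genes not called on the third day, it was 3.72 for Pou5f1, whose drop lay on the second day, and -3.03 for Dcx and -4.95 for Hes5, which rose on the second day.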

How the results depend on the processing

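The counts of called genes moved with the processing. Of 1882 recomputed values of named genes, 1596 kept their direction and side of the threshold, 202 lost a call, 77 gained one and 7 changed sign. Those 7, all without 1 array and none of them past the threshold, were of Pou5f1 (-0.69 to 0.16 log2 without single arrays), Nhlh1 (-0.09 to 0.3), Nes (-0.02 to 0.41) and Id3 (-1.15 to 0.2). Called genes (higher, lower, at least 2-fold, and the test between steps) were 19 (15, 4, 19, 30) with a pseudocount of 1 and 239 (200, 39, 107, 205) with 64. They were 51 (42, 9, 50, 108) with a filter at percentile 75, 81 (68, 13, 80, 88) with no filter and 159 (121, 38, 118, 199) with the mean of all probe sets. On only the 6 arrays at 48 h and 72 h they were 469 (294, 175, 262), and 93 of the 94 genes were called there too. Array weights, whose estimation did not converge, gave 2549 (1256, 1293, 353, 1025). Without the 4 arrays numbered 3 there were 0 in each, with 726 at an unadjusted p under 0.05 in limma. The causes were not tested.

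Leaving out 1 array gave 27 to 485 called genes, 23 to 285 higher, 4 to 200 lower, 27 to 271 at least 2-fold and 3 to 554 between steps; the highest values all came without induced 24 h replicate 1, and the 3 without 48 h replicate 1. The replicate block gave 111 (89, 22, 111, 210). On the 6 arrays alone the replicate block gave 1853 (1012, 841, 355), and without induced 24 h replicate 1 it gave 935 (489, 446, 325, 985); both were chosen after seeing the data. Of the 43 called named genes the block ended the calls of Pdlim4 and Drd2 and of no other. Quantile normalization (109), no intensity trend (100) and a filter on 3 of all arrays (86, chosen after seeing the data) stayed within 1.5 times the count.

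With 3 arrays per time and a shared spread, many differences without overlap of arrays did not pass (94 called genes against 2844 without overlap), and a p that missed the threshold does not show that levels were alike. Dim probe sets have understated differences.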
